A study of Mus musculus with 24 samples.

Results

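The genes for 10 ion channels that respond to stretch of the plasma membrane or to swelling of the cell were followed in TM3 cells, an established mouse cell line derived from Leydig cells, the testosterone-making cells of the testis. The 10 genes were Piezo1, Piezo2, Trpm7, Trpv4, Trpc1, Ano6, Lrrc8a, Lrrc8b, Lrrc8c and Lrrc8d, out of 23787 genes with a symbol on the array. They were chosen by name, and every probe whose RefSeq transcript belongs to one of them was kept, which gave 19 probes of 56605. RNA was taken from cells that had been exposed to nanosecond pulsed electric fields (nsPEF, groups E0, E4 and E24) or sham-exposed (S0, S4 and S24), at 0, 4 and 24 h, with 4 biological replicates and 4 arrays in each of the 6 groups. The nsPEF cells received 80 pulses of 60 ns width and 5.5 kV amplitude, at 26.4 pulses per minute over 180 s and a field of 14 kV/cm. Cells of all 6 groups had been washed, suspended in binding buffer, strained and placed in electroporation cuvettes, so that sham cells shared this handling and lacked only the pulses.

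PIEZO1 and PIEZO2 are large channels that open when the membrane is stretched and admit cations, calcium among them. TRPM7, TRPV4 and TRPC1 belong to the transient receptor potential (TRP) family of cation channels. TRPM7 is joined to a kinase and passes magnesium and calcium, TRPV4 opens on hypotonic swelling and warmth, and TRPC1 forms mixed channels with other TRPC subunits. The LRRC8 proteins make up the volume-regulated anion channel, in which LRRC8A is the obligatory subunit and LRRC8B, LRRC8C and LRRC8D are partners that set which ions and organic osmolytes leave a swollen cell. ANO6 (TMEM16F) is a calcium-activated channel and scramblase that moves phosphatidylserine to the outer leaflet of the membrane. Electric pulses of nanosecond length perforate the membrane and let water and ions in, and the question put to these genes was whether their transcripts changed after nsPEF and over the hours that followed.

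Values are log2 processed intensities less the array's own 75th percentile, so that 1 unit is a doubling. Probes entered the test when 2 or more of the 4 arrays in some group showed them well above background by the scanner software, and 16 of the 19 probes did, with at least 1 for each of the 10 genes. The 12 probes that were well above background on all 24 arrays represented 8 genes, all but Piezo2 and Trpc1. The 3 probes that failed were A_55_P2482633 and A_55_P2139077 for Piezo2 and A_55_P2022793 for Trpc1, which were well above background on 1, 0 and 0 of 24 arrays. Where a gene has several probes they are numbered by their mean intensity, and probes are not compared with each other in level. The 8 arrays of a time point lay on 1 slide, and what is due to time cannot be told apart from what is due to the slide. Per the paper, the 0 h cells came straight from a prolonged preparation, and those of 4 and 24 h were harvested quickly after culture. This difference in handling cannot be told apart from time either. On each of the 3 slides the sham samples took one row of arrays and the nsPEF samples the other, so treatment and array position cannot be told apart. Between 57.5 and 62.1% of probes were well above background on sham arrays and between 51.2 and 57.2% on nsPEF arrays. Of the Leydig cell markers, Star, Cyp17a1 and Nr5a1 were well above background on all 24 arrays, but Cyp11a1, Hsd17b3 and Lhcgr were on none and Hsd3b1 on at most 1. Markers named for other cells were also measured on all 24 arrays (Sox9, Pecam1, Cd68, Csf1r, Snap25 and Tubb3), while Ptprc and Adgre1 of macrophages were on at most 1 and Cdh5 and Tek of endothelium on 0. In a bulk RNA sample, fewer cells of a type and less RNA per cell cannot be told apart.

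Lrrc8b, Lrrc8c and Lrrc8d are neighbours on mouse chromosome 5. In the RefSeq annotation of GRCm38.p6 they span 105415206 to 105490079, 105519345 to 105613018 and 105699963 to 105815215, all on the plus strand. The gap from Lrrc8b to Lrrc8c is 29.3 kb and that from Lrrc8c to Lrrc8d is 86.9 kb. Lrrc8a lies apart on chromosome 2 from 30237769 to 30263790, and Ano6 on chromosome 15 from 95790843 to 95975472. Promoters from RefSeq (GRCm38.p6) were matched for 9 of the 10 genes, without Piezo2. The 250 bases before the transcript start are given for Lrrc8a, Lrrc8d and Ano6, the well measured genes that moved most with time as described below, and for Lrrc8b and Lrrc8c, which share the locus of Lrrc8d and moved less. The starts used for Lrrc8b and Lrrc8c, and both of Lrrc8d, lie inside the annotated span of the gene. The windows are written 5′ to 3′ on the strand of the gene. Capitals mark matches on either strand to the AP-1 site TGANTCA, to the cAMP response element in the form TGACGTCA, to the GC box GGGCGG, or to the CCAAT box. The windows are chr2:30237519-30237768, plus strand; chr5:105699719-105699968, plus strand and chr5:105700560-105700809, plus strand, 2 annotated starts; chr15:95790593-95790842, plus strand; chr5:105415525-105415774, plus strand; and chr5:105519221-105519470, plus strand.
Lrrc8a: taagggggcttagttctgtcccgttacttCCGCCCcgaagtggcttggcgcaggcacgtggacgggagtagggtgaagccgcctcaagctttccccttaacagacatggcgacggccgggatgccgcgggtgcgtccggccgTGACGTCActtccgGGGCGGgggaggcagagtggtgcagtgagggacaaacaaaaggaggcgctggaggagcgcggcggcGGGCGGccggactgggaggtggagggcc
Lrrc8d, first start: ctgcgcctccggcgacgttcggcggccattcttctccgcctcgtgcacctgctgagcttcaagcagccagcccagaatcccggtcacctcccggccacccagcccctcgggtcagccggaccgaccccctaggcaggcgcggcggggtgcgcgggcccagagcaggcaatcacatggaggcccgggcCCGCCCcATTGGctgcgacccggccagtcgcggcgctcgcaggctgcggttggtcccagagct
Lrrc8d, second start: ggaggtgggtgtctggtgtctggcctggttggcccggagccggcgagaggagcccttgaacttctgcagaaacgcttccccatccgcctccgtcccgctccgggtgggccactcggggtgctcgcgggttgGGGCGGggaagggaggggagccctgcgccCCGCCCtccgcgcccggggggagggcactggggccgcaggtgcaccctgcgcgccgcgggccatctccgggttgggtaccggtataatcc
Ano6: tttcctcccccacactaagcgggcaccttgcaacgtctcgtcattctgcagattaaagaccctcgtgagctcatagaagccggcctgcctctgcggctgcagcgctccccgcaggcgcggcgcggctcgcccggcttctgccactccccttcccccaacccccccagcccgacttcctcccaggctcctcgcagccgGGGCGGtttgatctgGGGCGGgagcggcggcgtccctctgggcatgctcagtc
Lrrc8b: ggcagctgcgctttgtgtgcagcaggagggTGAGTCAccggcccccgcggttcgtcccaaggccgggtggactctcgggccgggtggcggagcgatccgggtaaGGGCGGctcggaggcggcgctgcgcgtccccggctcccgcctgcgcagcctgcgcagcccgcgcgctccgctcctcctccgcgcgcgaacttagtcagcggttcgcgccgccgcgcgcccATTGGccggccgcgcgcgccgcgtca
Lrrc8c: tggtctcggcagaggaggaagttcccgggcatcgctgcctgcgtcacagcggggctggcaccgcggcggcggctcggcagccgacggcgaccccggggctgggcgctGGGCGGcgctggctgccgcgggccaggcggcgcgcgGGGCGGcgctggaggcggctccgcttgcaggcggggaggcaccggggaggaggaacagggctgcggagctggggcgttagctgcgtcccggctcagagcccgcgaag

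The Lrrc8a promoter held 1 full cAMP response element, 108 bases before the start, and none was found in the windows of the other genes with a promoter. This element occurs in 1.55% of the 32851 promoter windows of this length. An AP-1 match was found in Lrrc8b alone among them, 220 bases before the start, and such matches occur in 6.75% of all windows. GC boxes stood in all 6 windows printed, with 3 matches in Lrrc8a, 2 in Ano6, 2 in Lrrc8c and 2 at the second start of Lrrc8d, against 32.7% of all windows with at least 1. Both Lrrc8b and the first start of Lrrc8d held 1 CCAAT box, on the opposite strand, and 33.8% of all windows hold one. The letters TGGAAA, the core of NFAT sites, and TATAAA, the TATA box, occur in 18.6% and 12.4% of all windows but were in none of the 6. No marked match overlapped another. These matches describe the sequence only.

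None of the 10 channel genes passed the test after nsPEF at any time point. At 0 h, 0 of the 16 member probes passed an adjusted p of 0.05 in limma's moderated test, where 0.127% of the 37687 probes tested on the array did. At 4 h the count was 0 against a background of 3.31%, at 24 h 0 against 4.82%, and for the mean over the 3 time points 0 against 8.84%. The interaction of treatment with time was called for 0 of 16 member probes and for 0.377% of all probes. At an unadjusted p of 0.05, 1 of 16 probes passed at 0 h, 1 at 4 h, 1 at 24 h and 0 over the 3 time points, and 10.0%, 21.0%, 22.1% and 26.1% of all probes did. The smallest adjusted p of a member was 0.394 at 0 h, 0.232 at 4 h, 0.114 at 24 h and 0.194 over the time points, and 0.334 for the interaction. Over the members, the median absolute difference amounted to 0.067 (0 h), 0.043 (4 h) and 0.073 (24 h), against 0.096, 0.14 and 0.15 over all probes tested. These medians were not matched for brightness. On all 24 arrays, 12 of the 16 member probes and 24699 of the 37687 probes tested were well above background.

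The intervals show how large a change could have been missed. For the 12 probes above background on all arrays, the differences of nsPEF from sham lay between -0.15 and 0.11 at 0 h, between -0.12 and 0.14 at 4 h and between -0.15 and 0.060 at 24 h. Their 95% intervals reached from -0.41 to 0.31 at 0 h, from -0.38 to 0.31 at 4 h and from -0.43 to 0.26 at 24 h, so that changes beyond 1.35-fold fell outside all of these intervals. The mean over 3 time points was narrower, with differences between -0.075 and 0.073 and intervals from -0.26 to 0.15. The dim probes of Piezo2 and Trpc1 had intervals of more than 1 log2 unit to either side of the estimate at each time point, so that smaller changes were not detectable in them. The plot of nsPEF differences shows the contrast between the narrow intervals of the bright probes and the wide ones of these 2 genes.

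**Figure D1:**
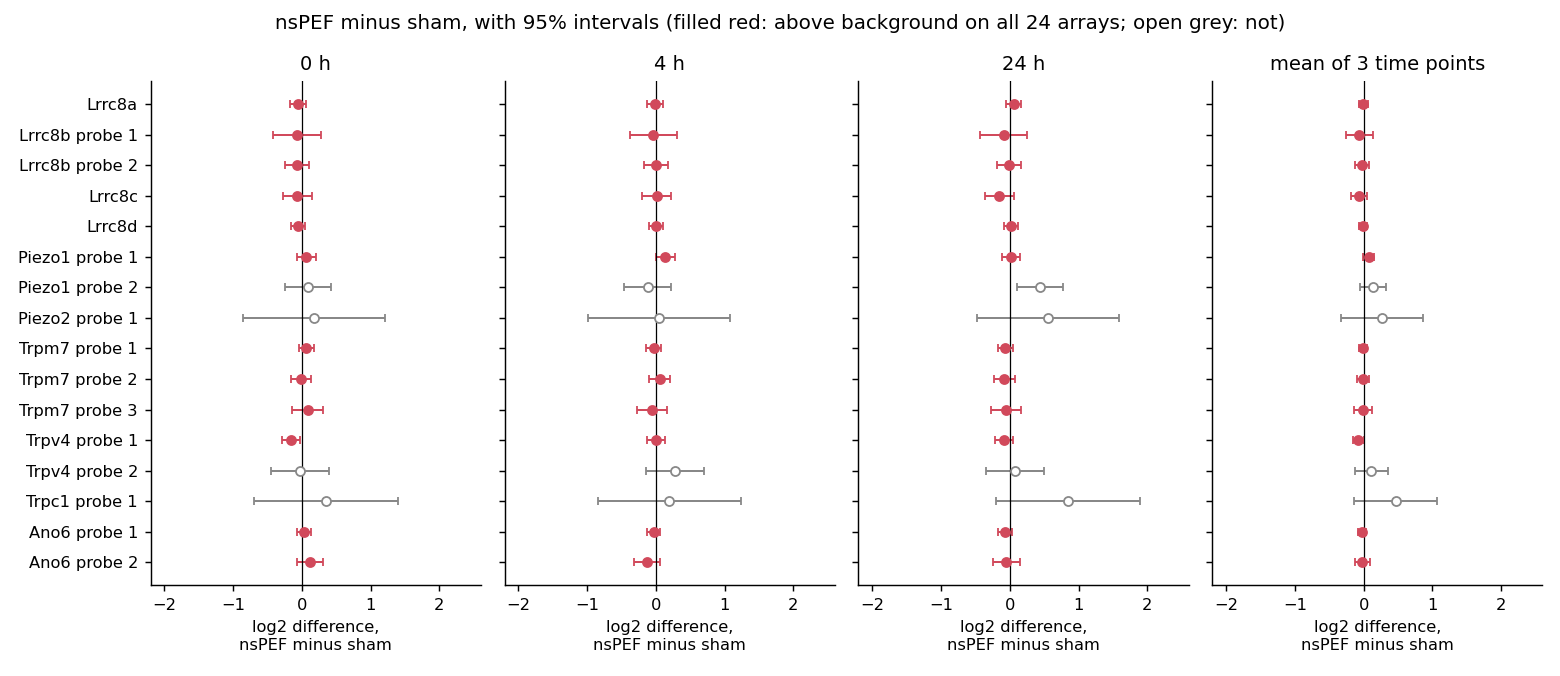
Differences between nsPEF and sham on the log2 scale (x axis) for the 16 tested member probes (y axis) at 0, 4 and 24 h and over the 3 time points, with 95% intervals from limma and 4 arrays per group. Filled red points are probes well above background on all 24 arrays and open grey points are not; the red points sit between -0.15 and 0.14 in every panel.

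Piezo1 came nearest to a difference from sham. Its probe 1, A_55_P2150343, read 5.64, 5.75, 5.69 and 5.84 in S4 and 5.78, 5.74, 5.95 and 6.01 in E4. The groups overlapped, and the difference was 0.14 with an interval from 0.0019 to 0.27 and an adjusted p of 0.232. With spike-in scaling, which placed the median of all probes 0.19 higher in nsPEF than in sham cells at 4 h, it was 0.32 and passed (adjusted p 0.0081), as did Trpm7 probe 2 at 0.24 (adjusted p 0.042). At 24 h this probe read 5.28, 5.30, 5.28 and 5.48 in S24 and 5.25, 5.38, 5.41 and 5.37 in E24, a difference of 0.017. Probe 2, A_52_P594177, which is dim, read -4.01, -4.52, -4.55 and -4.05 in S24 and -3.82, -3.91, -3.74 and -3.90 in E24, the last of these not well above background. At this time point alone, and in no other tested member probe at any time point, the values of sham and nsPEF did not overlap. How many of all tested probes lacked overlap was not counted, so this does not set the probe apart from the rest of the array. The difference of 0.44 had an adjusted p of 0.114. With weights for array quality the difference was 0.51 and passed, with an adjusted p of 0.033. The 24 h intervals of the 2 probes, -0.12 to 0.15 and 0.10 to 0.78, overlap narrowly. Trpv4, the swelling-sensitive TRP channel, had the smallest unadjusted p at 0 h, where its probe 1 A_51_P269203 read -0.59, -0.48, -0.33 and -0.42 in S0 and -0.58, -0.58, -0.59 and -0.67 in E0, a difference of -0.15 with an adjusted p of 0.394.

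Differences with time were larger than those with nsPEF. In sham cells, 12 of the 16 member probes were higher at 4 h than at 0 h and 0 were lower, while 29.4% of all probes were higher and 29.7% lower. These 12 probes represent 9 genes, all but Trpc1. The Piezo2 probe among them was tested because of its signal in S4 and had to differ, and without Piezo2 and Trpc1, both near the background, 11 of 14 probes and 8 genes were higher. In nsPEF cells 11 member probes of 9 genes were higher at 4 h and 0 were lower (10 probes of 8 genes without these 2), with 33.5% of all probes higher and 27.8% lower. The median difference from 0 to 4 h was 0.46 over the member probes and -0.0060 over all probes in sham cells, and 0.45 against 0.091 in nsPEF cells. The 2 comparisons use different arrays, but those of a time point share a slide. Markers of other cells moved with time too. Of the 4 macrophage markers 2 were measured and went opposite ways, Cd68 from a mean of 0.83 in S0 to -0.078 in S4 and Csf1r from 0.50 to 2.15, while Ptprc and Adgre1 were well above background on at most 1 array. Of the 5 Sertoli cell markers Sox9 alone was tested, with -0.12 in S0 and -1.33 in S4. The summed level of the macrophage list went from between 2.04 and 2.15 in S0 to between 2.48 and 2.72 in S4. That of the Sertoli cell list went from between 0.18 and 0.25 to between -0.73 and -0.56. For the endothelium list it went from between -2.69 and -2.47 to between -3.04 and -3.02. The sum of the neuron list went from between 2.73 and 2.91 to between 1.92 and 2.48. This fall followed Snap25, its brightest marker, with a mean of 2.73 in S0 and 2.04 in S4. Of the 3 neuron markers tested, 2 were called higher and 1 lower, with a median difference of 0.27. Among the 2 higher, Rbfox3 was well above background on 0 arrays in S0 and on 3 in S4. It was tested through S4 alone, so its higher value there was built into its selection. The summed ranges of the Leydig cell and germ cell lists overlapped between S0 and S4. The part of these markers in the result was not tested. From 4 to 24 h in sham cells, 11 member probes of 8 genes fell and 1 rose, with 29.9% of all probes lower and 27.8% higher, and without Piezo2 and Trpc1 10 probes of 7 genes fell and 0 rose.

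**Figure D2:**
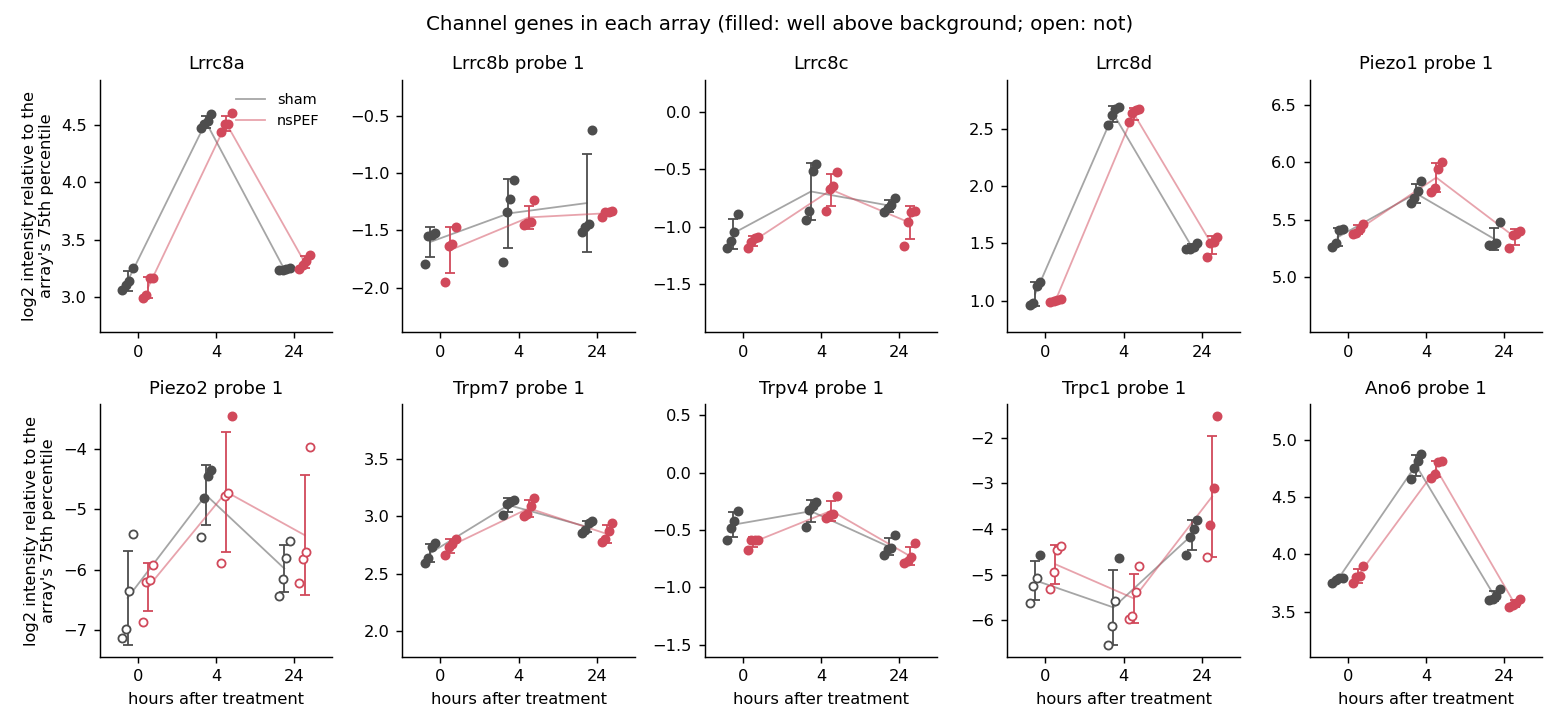
Log2 intensity less the array's 75th percentile (y axis, own range in each panel) at 0, 4 and 24 h (x axis) for the first probe of each channel gene, with 1 point per array, sham in grey and nsPEF in red, and the mean and SD of each group of 4. Filled points are well above background and open points are not; Lrrc8a, Lrrc8d and Ano6 peak at 4 h in both treatments, and most points of Piezo2 and Trpc1 are open.

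Among the subunits of the volume-regulated anion channel, Lrrc8d and Lrrc8a rose most. Lrrc8d (probe A_55_P2805915) read 1.16, 1.13, 0.98 and 0.96 in S0, then 2.62, 2.67, 2.53 and 2.68 in S4, then 1.45, 1.45, 1.50 and 1.47 in S24. In nsPEF cells it read 1.00, 0.98, 1.01 and 1.00 in E0, then 2.67, 2.66, 2.56 and 2.63 in E4, then 1.50, 1.55, 1.38 and 1.51 in E24. The 3 time points did not overlap within either treatment, and sham and nsPEF overlapped at each. The rise by 4 h was 1.57 ± 0.051 (SE, n = 4 and 4) in sham cells, 2.97-fold, with an adjusted p of 8.35e-16, and 1.63 ± 0.051 in nsPEF cells, 3.09-fold, with an adjusted p of 4.38e-16. At 24 h Lrrc8d was still 1.33-fold above 0 h in sham cells and 1.40-fold above it in nsPEF cells, with adjusted p of 2.68e-06 and 2.78e-07 in limma.

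Lrrc8a, the subunit without which the channel does not form, followed the same course. Its probe A_55_P2245920 read 3.06, 3.14, 3.10 and 3.25 in S0, then 4.47, 4.59, 4.53 and 4.50 in S4, then 3.26, 3.24, 3.24 and 3.23 in S24. In nsPEF cells the values were 3.01, 2.99, 3.17 and 3.16 in E0, then 4.51, 4.60, 4.43 and 4.51 in E4, then 3.28, 3.37, 3.24 and 3.31 in E24. All values at 4 h lay above all others. The rise was 2.61-fold in sham cells (1.39 ± 0.052, adjusted p 8.43e-15) and 2.70-fold in nsPEF cells (1.43 ± 0.052, adjusted p 4.73e-15). At 24 h Lrrc8a did not pass in sham cells, at 0.10 above 0 h (adjusted p 0.135, or 0.048 at 0.14 without S0 replicate 4), and was 0.22 above 0 h in nsPEF cells (adjusted p 0.0023). The interaction of treatment with time for Lrrc8a had an adjusted p of 0.588, so a difference between these values was not shown.

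The neighbours of Lrrc8d on chromosome 5 rose less. Lrrc8c (probe A_51_P503261) went from between -1.19 and -0.89 in S0 to between -0.94 and -0.46 in S4, 2 ranges that overlapped, and was higher by 0.37 in sham cells and 0.45 in nsPEF cells (adjusted p 0.0036 and 0.00063). Lrrc8b probe 2, A_51_P420841, went from between -1.91 and -1.83 to between -1.46 and -1.20 without overlap, and rose by 0.51 in sham cells and 0.59 in nsPEF cells (adjusted p 2.16e-05 and 4.07e-06). Lrrc8b probe 1, A_55_P1953489, was higher by 0.25 and 0.28 at 4 h and did not pass (adjusted p 0.208 and 0.144). Both probes are for the same RefSeq transcript, NM_001033550. One array, S24 replicate 1, read -0.62 for probe 1 against -1.51 to -1.44 on the other 3 arrays of its group, and without it the 4 h rise of probe 1 in nsPEF cells passed at the same 0.28 (adjusted p 0.045). At 24 h Lrrc8c was not called, with 0.24 and 0.16, and Lrrc8b probe 2 was called in nsPEF cells at 0.24 (adjusted p 0.026) and stood at 0.19 in sham cells (adjusted p 0.088). The nsPEF call was lost without any 1 of E0 replicates 2, 3 and 4 and E24 replicates 2 and 3. The family's remaining subunit, Lrrc8e, which is not among the 10 channels, rose by 0.23 in sham cells and 0.35 in nsPEF cells by 4 h.

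Ano6, the scramblase, doubled by 4 h and ended slightly below its start. Probe 1, A_52_P660158, read 3.75, 3.78, 3.79 and 3.79 in S0, then 4.75, 4.82, 4.66 and 4.87 in S4, then 3.60, 3.61, 3.64 and 3.70 in S24. In nsPEF cells it read 3.75, 3.80, 3.81 and 3.90 in E0, then 4.67, 4.70, 4.81 and 4.80 in E4, then 3.54, 3.56, 3.61 and 3.58 in E24. The 3 time points did not overlap within either treatment. The rise was 2.00-fold in sham cells (0.998 ± 0.048, adjusted p 3.50e-13) and 1.91-fold in nsPEF cells (0.93 ± 0.048, adjusted p 9.80e-13). Probe 2, A_55_P2327027, for the transcript NM_001253813, rose by 2.09-fold and 1.78-fold. At 24 h against 0 h, probe 1 was lower by -0.14 in sham cells (adjusted p 0.028) and -0.24 in nsPEF cells (adjusted p 0.00043), and probe 2 by -0.21 (adjusted p 0.078) and -0.38 (adjusted p 0.0027). Scaling on the spike-in RNA, which placed the median of all probes 0.70 higher at 24 h than at 0 h in sham cells, turned the direction of all 4 of these 24 h values. The small 24 h fall of probe 1 in sham cells was also lost without any 1 of S0 replicates 2, 3 and 4 and S24 replicates 1, 2 and 3 (adjusted p between 0.051 and 0.074).

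Piezo1 also peaked at 4 h. Probe 1 read 5.26, 5.41, 5.42 and 5.30 in S0 and 5.42, 5.46, 5.38 and 5.38 in E0, and all its values at 4 h lay above these. The rise was 0.38 ± 0.065 in sham cells and 0.46 ± 0.065 in nsPEF cells (adjusted p 3.45e-05 and 3.94e-06), and by 24 h the values were back at -0.015 and -0.062 from 0 h (adjusted p 0.890 and 0.463). Probe 2 was higher by 0.53 at 4 h in sham cells (adjusted p 0.0079), a rise that became -0.082 with another background correction (normexp), and by 0.32 in nsPEF cells (adjusted p 0.090). At 24 h probe 2 differed from 0 h by -0.62 in sham cells (adjusted p 0.0050), and spike-in scaling turned this to 0.081.

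The 3 probes of Trpm7 differed in which rises were called. Probe 1, A_55_P2035265, read 2.59, 2.73, 2.63 and 2.76 in S0, then 3.11, 3.01, 3.12 and 3.14 in S4, then 2.86, 2.96, 2.94 and 2.88 in S24, without overlap. It rose by 0.42 ± 0.053 in sham cells and 0.33 ± 0.053 in nsPEF cells by 4 h (adjusted p 7.05e-07 and 1.68e-05), and at 24 h it was 0.23 above 0 h in sham cells (adjusted p 0.0018) and 0.10 above it in nsPEF cells (adjusted p 0.118). Probe 3, A_55_P2610277, for the same transcript NM_021450, was higher by 0.25 in sham cells (adjusted p 0.043) and by 0.12 in nsPEF cells (adjusted p 0.349). The call of probe 3 was lost without any 1 of 6 arrays, S0 replicates 1 and 4, S4 replicates 2, 3 and 4, and S24 replicate 1. Probe 2, A_55_P2809423, for the transcript NM_001164325, ranged from 1.38 to 1.56 in S0 and from 1.19 to 1.61 in S4, with a difference of -0.035 in sham cells (adjusted p 0.715, interval -0.19 to 0.12) and 0.034 in nsPEF cells. The interval of probe 2 in sham cells does not meet that of probe 1, which ran from 0.31 to 0.53. The interval of probe 3 overlaps both. As folds it ran from 1.03 to 1.39, against 1.24 to 1.44 for probe 1 and 0.88 to 1.08 for probe 2.

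Trpv4 was called higher at 4 h than at 0 h in nsPEF cells by both of its probes, and in sham cells by the dimmer one. Its probe 1 read -0.32, -0.26, -0.47 and -0.29 in S4 and -0.37, -0.39, -0.36 and -0.20 in E4. It was higher than at 0 h by 0.12 in sham cells (adjusted p 0.113) and by 0.27 in nsPEF cells (adjusted p 0.00079). The means at 4 h were -0.335 in S4 and -0.331 in E4. No member probe passed for the interaction of treatment with time, so a difference between the 2 rises was not shown. Probe 1 read -0.66, -0.66, -0.72 and -0.54 in S24, lower than at 0 h by -0.19 (adjusted p 0.021). Spike-in scaling turned this value to 0.51, and the call was lost without any 1 of S0 replicates 3 and 4 and S24 replicate 3. Probe 2, A_66_P100306, was well above background on 16 of 24 arrays and was higher at 4 h by 0.50 in sham cells (adjusted p 0.038) and 0.81 in nsPEF cells (adjusted p 0.0016). Normexp correction turned the sham value of probe 2 to -0.15 and brought the nsPEF value to 0.21, which did not pass (adjusted p 0.231). The sham call was also lost without any 1 of S0 replicates 1 and 2 and S4 replicates 1, 2 and 3.

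**Figure D3:**
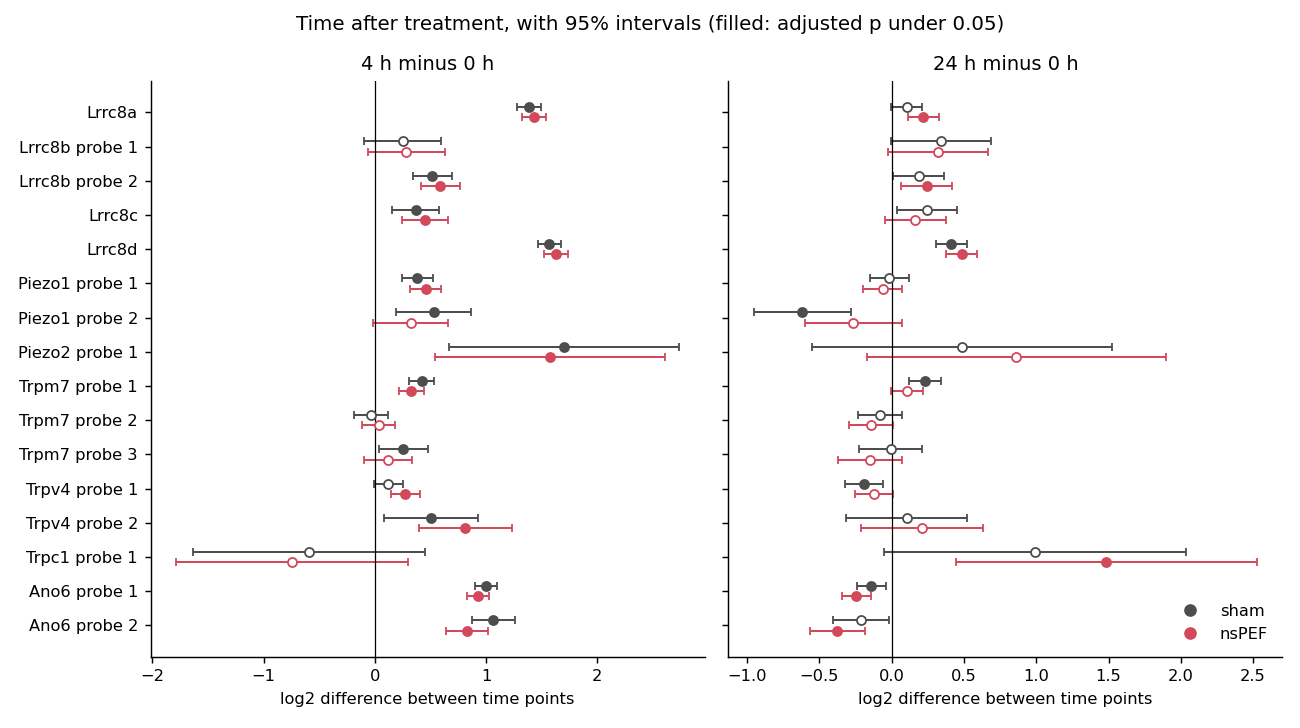
Differences from 0 h to 4 h (left) and from 0 h to 24 h (right) on the log2 scale (x axis) for the 16 tested member probes (y axis), in sham (grey) and nsPEF cells (red), with 95% intervals from limma. Filled points passed an adjusted p of 0.05; Lrrc8a, Lrrc8d and both probes of Ano6 lie between 0.83 and 1.63 at 4 h, and at 24 h the same probes lie between -0.38 and 0.49.

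Piezo2 and Trpc1 were near the background. Piezo2 probe 1, A_55_P2040245, was well above background on 0 of 4 arrays in each of S0, E0, S24 and E24, on 3 in S4 and on 1 in E4. It read -4.35, -4.44, -5.46 and -4.81 in S4 and -4.77, -3.45, -5.89 and -4.73 in E4, and from -7.13 to -5.41 in S0. The probe passed the filter through S4 alone, so that a difference of S4 from the other groups was built into its selection and is given here as a description. With the other group raised to the lowest signal that counts as above background, the S4 mean was 1.28-fold above S0 and 1.62-fold above S24. The E4 mean was 1.02-fold above E0 in the same way. These folds use all 4 arrays of the 4 h group, of which 3 in S4 and 1 in E4 measured the probe, so they are not lower bounds. Normexp correction turned the difference between S4 and S0 to -0.14. With values below background set to the background, the differences by 4 h were 0.48 in sham cells and 0.48 in nsPEF cells, and neither passed (adjusted p 0.216 and 0.210). The paper lists Piezo2 among genes upregulated in nsPEF cells at 4 h, from a two-way analysis of variance with clustering. Here probe 1 differed by 0.051 between E4 and S4 (adjusted p 0.964 in limma). Which probe the paper's statement rests on was not looked up.

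Trpc1 was highest at 24 h. Probe 1, A_51_P196019, was well above background on 1 array in S0, 0 in E0, 1 in S4, 0 in E4, 4 in S24 and 3 in E24. It read -5.58, -6.11, -6.55 and -4.63 in S4 and -4.00, -4.17, -4.57 and -3.80 in S24, which did not overlap. The probe passed the filter through the 24 h groups alone, and its higher values there are likewise a description. The fitted difference of S24 from S4 was 1.58, with 3 of the 4 arrays of S4 not above background, and it was 0.96 with values below background set to the background and 0.30 with normexp correction. In E24 the values spread from -4.61 to -1.52. Their mean, with 3 of 4 arrays above background, was 2.40-fold above E0 raised to the lowest signal that counts as above background. Without E24 replicate 4 the fitted difference was 0.90 against 1.49 with all arrays. The other Trpc1 probe, which was below background on all 24 arrays, was not tested. Its values lay from -7.15 to -6.85 in S0 and from -6.80 to -6.07 in E0, and as at 4 and 24 h the sham and nsPEF groups did not overlap. Of the untested Piezo2 probes, the values of A_55_P2482633 did not overlap at 0 h (up to -6.82 in S0 and from -6.81 in E0) and those of A_55_P2139077 did not at 24 h (up to -6.40 in S24 and from -6.37 in E24), again with nsPEF above sham. The median of the negative control spots, on the same scale, also lay higher on nsPEF arrays. It ranged from -7.18 to -6.88 in S0 and from -6.86 to -6.15 in E0. At 4 h it ranged from -7.49 to -6.97 in S4 and from -6.35 to -5.89 in E4. At 24 h it ranged from -7.18 to -6.90 in S24 and from -6.46 to -5.99 in E24. How many of all dim probes lacked overlap was not counted. The part of array position in these shifts was not tested.

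At 24 h against 0 h, 2 member probes were higher and 3 lower in sham cells, with 16.9% of all probes higher and 19.7% lower. In nsPEF cells 4 were higher and 2 lower, with 23.9% and 18.3% of all probes. The higher ones were Lrrc8d and Trpm7 probe 1 in sham cells and Lrrc8d, Lrrc8a, Lrrc8b probe 2 and Trpc1 in nsPEF cells, of which Trpc1 was tested through the 24 h groups alone. The lower ones were Ano6, Trpv4 and Piezo1, each with 1 probe, in sham cells and both probes of Ano6 in nsPEF cells. After spike-in scaling 15 probes were higher and 0 lower in sham cells, and 14 and 0 in nsPEF cells, with the median of all probes higher by 0.70 and 0.54. Relative to that median, the median member differed by 0.10 in sham cells and 0.072 in nsPEF cells, as without spike-in scaling. From 0 to 4 h in sham cells the same scaling moved the median of all probes by 0.045 and left the count at 12 higher and 0 lower.

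Other genes of cell volume regulation, a list that shares no member with the 10 channels, moved by 4 h as well. Of 19 such genes 18 were tested, and by 4 h 11 were higher and 3 lower in sham cells, with 30.8% of all genes higher and 34.6% lower. The median difference was 0.29 over this list and -0.040 over all genes. Slc5a3, the myo-inositol transporter that loads cells with osmolyte, rose by 1.83 ± 0.099, and Nfat5, the transcription factor of the tonicity response, by 1.79 ± 0.055 (adjusted p 2.21e-12 and 3.57e-16). Slc12a2, the sodium, potassium and chloride cotransporter that fills shrunken cells, rose by 1.01, and Slc6a6, the taurine transporter, by 0.90. The kinase gene Sgk1 fell by 0.64. In nsPEF cells 11 genes were higher and 5 lower, where 34.8% of all genes were higher and 33.0% lower, with Nfat5 higher by 1.64 and Slc5a3 by 1.45. Between nsPEF and sham, 0 of the 18 genes were called at 0 h, 2 at 4 h, both lower, 0 at 24 h and 2 over the 3 time points, both lower, where 0.101%, 4.03%, 5.74% and 10.1% of all genes were called. Stk39, a kinase that acts on the cotransporters, was among them at 4 h with -0.22 (adjusted p 0.045) and over the time points with -0.12 (adjusted p 0.038).

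**Figure D4:**
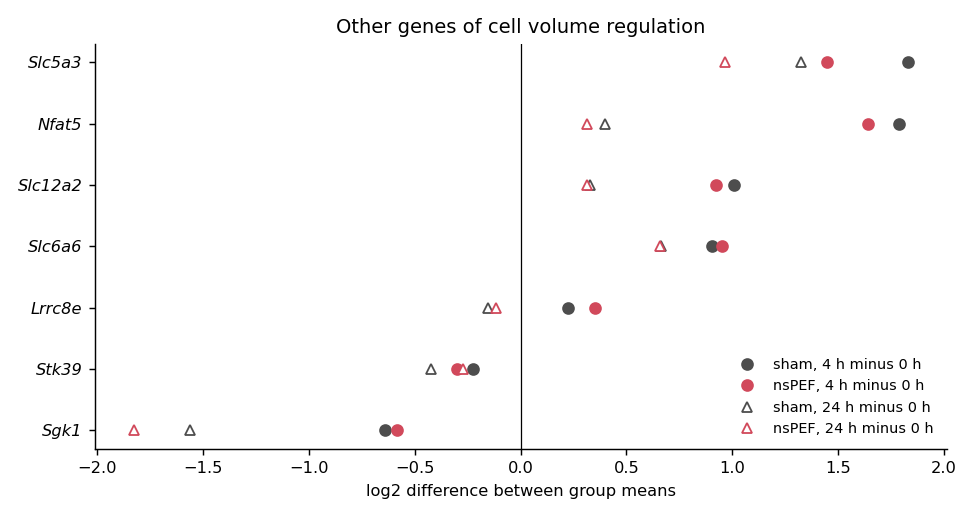
Differences of group means on the log2 scale (x axis) for 7 of the tested genes of cell volume regulation (y axis), those named in the text, from 0 to 4 h (filled circles) and from 0 to 24 h (open triangles), in sham (grey) and nsPEF cells (red), with 4 arrays per group. In sham cells Slc5a3 and Nfat5 stand at 1.83 and 1.79 at 4 h and Sgk1 falls to -1.56 at 24 h, and in nsPEF cells Sgk1 falls further.

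The relatives of PIEZO and TRP channels gave calls in both directions, as all genes tested did. In sham cells by 4 h, 30.8% of all genes were higher and 34.6% lower, the shares to set beside the counts below. Of 14 other mechanically gated channels and PIEZO partners 11 were tested, and by 4 h in sham cells 4 were higher and 2 lower. Kcnk2, the stretch-activated potassium channel TREK1, rose by 2.20 ± 0.16 (adjusted p 1.74e-10) and was still 0.98 above 0 h at 24 h. Tmem63b and Tmem63a, channels gated by membrane stretch, rose by 0.45 and 0.37. Of 26 other TRP channels and polycystins 16 were tested, of which 2 were higher and 6 lower by 4 h in sham cells. Trpm4, a calcium-activated cation channel, and Trpm8, the cold receptor, were lower by -0.99 and -0.71, and Trpc7 was called lower with 0 of 4 arrays above background in S4. Mcoln3, a lysosomal channel, was higher by 0.72, and Pkd2l2 by 1.13 with 1 of 4 arrays above background in S0. Of 19 other anoctamins and scrambling genes 15 were tested, with 6 higher and 5 lower, among them Ano7 and Ano1, a calcium-activated chloride channel, higher by 0.91 and 0.79, and Ano10 and Ano8, lower by -1.12 and -0.83. Plscr4 was called lower with 0 of 4 arrays above background in S4. Ano3 was called higher, but it was well above background on 2 of 24 arrays, both in S4, through which it was tested.

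Between nsPEF and sham, these 3 lists held 2 calls of 16 genes (TRP), 1 of 11 (mechanically gated) and 1 of 15 (anoctamins and scrambling) at 4 h, 1, 0 and 0 at 24 h, and 2, 2 and 2 over the 3 time points, where 4.03%, 5.74% and 10.1% of all genes were called. At 4 h, Trpv6 was higher than in sham cells by 1.66 (adjusted p 0.028), Trpc6 by 0.91 (adjusted p 0.010) and Tmem63c by 1.35 (adjusted p 0.026). The Trpc6 probe was well above background on all 24 arrays, that of Trpv6 on 23, and that of Tmem63c on 17, with 1 of 4 in S4 and 2 of 4 in E4. The remaining calls at single time points were Plscr4 at 4 h, with 0 arrays above background in S4 and in E4, and Trpm5 at 24 h, which was on 0 of 4 arrays of S24 and 2 of 4 of E24 and was tested through nsPEF groups alone, so no size is given. Stoml3, of the mechanically gated list, was above background on 0 arrays of S0, S4 and S24 and on 2, 2 and 1 of E0, E4 and E24. It too was tested through nsPEF groups alone, so a call of it over the 3 time points would be built into its selection. The Trpv6 probe lies in spot row 8 of the array. Among probes of the first 24 rows that were not well above background on all arrays, the median difference between nsPEF and sham at 4 h was 0.70, and the part of the spot's place in these calls was not tested. At 0 h, 0 genes of the 3 lists were called, where 0.101% of all genes were.

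The genes most like the channels in their course were found by correlation. Over the 24 arrays, the genes closest to Lrrc8a out of 17910 candidate probes were Inhba (Pearson r 0.996), Noct (0.996) and Vps37b (0.996), and those closest to Lrrc8d were Itpripl2 (0.996), Abhd13 (0.996) and Klhl21 (0.996). The closest to Ano6 were Runx1 (0.994), Acsl4 (0.993) and Vegfc (0.993). Lrrc8a and Lrrc8d had an r of 0.979 with each other and Lrrc8a and Ano6 one of 0.955. Within groups, with each group's mean taken off, these were 0.076 and 0.057, so that the likeness lay in the group means. The 24 arrays share slides by time point, and these correlations are a description with no test.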

How the data were processed

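Gene expression was measured on 24 one-colour Agilent arrays of TM3 cells, 4 in each of 6 groups. Processed intensities were made by the authors with Agilent Feature Extraction 12.0, which subtracts the background. The authors also deposited a table of log2 values, which per the study's methods were shifted to the 75th percentile and set to a median baseline in GeneSpring. It served as an alternative only, and its arrays correlated with the values used here at a median r of 0.9999 (column medians -0.20 to 0.29).

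Here log2 of the processed intensity was taken after leaving out control spots (3671 of 62976) and spots marked as not uniform or as population outliers, spots of a probe were averaged, and each array's 75th percentile was subtracted. Of 56605 probes, 61.1% carry a gene symbol, and no spot was saturated. The 37687 probes well above background on 2 or more of 4 arrays in at least 1 group entered a model of 6 group means over all 24 arrays (limma 3.58.1, R 4.3.3), with moderated two-sided tests and Benjamini-Hochberg adjustment over all probes, at a threshold of 0.05. A plain two-way analysis of variance, the test used by the authors, was run as an alternative. Where every array of a group lacked a signal well above background, folds of the member genes are also given against the lowest signal counted as above background. Genes of other lists are then given without a size. The number of arrays limits the precision. The scripts were tested on simulated data.

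Groups came from the sample labels. All probes of the 10 genes are described. Genes of other lists were named by size, up to 3 per direction and comparison among those called, each by its brightest tested probe, and for likeness the 3 genes with the highest r. The members and lists were chosen with earlier results of these data known. In all, 13 alternatives of scaling, background, filter, floor, weights, spot position, starting values, test and replicate block were run, and 28 that left out 1 array or 1 replicate number. Probe sequences and genomic probe positions were not used here. Promoters came from RefSeq (GRCm38.p6). Some genes of the cell volume list are counted but not reported by name here.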

Additional observations from a re-analysis of the deposited data

Results flagged for a closer look

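In 8 of 114 groups of 4 arrays, 1 array stood apart from the other 3 by more than Dixon's 95% critical value for the gap over the range. Chance gives about 1 in 20 such groups. Piezo1 probe A_55_P2150343 read 5.48 in S24 replicate 4 and between 5.28 and 5.30 on the other 3 arrays. Trpv4 probe A_51_P269203 read -0.67 in E0 replicate 4 against -0.59 to -0.58, and -0.20 in E4 replicate 4 against -0.39 to -0.36. Lrrc8b probe A_55_P1953489 read -1.80 in S0 replicate 1 against -1.55 to -1.52, -1.23 in E4 replicate 2 against -1.45 to -1.43, and -0.62 in S24 replicate 1 against -1.51 to -1.44.

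Piezo2 probe A_55_P2482633, which was left out of the tests as too dim, read -6.12 in S24 replicate 3 against -6.90 to -6.81. It read -2.23 in E24 replicate 4 against -6.38 to -6.08, and this was the only one of the 24 arrays on which it was well above background.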

How the results depend on the processing

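Of 46 member results called in the 9 comparisons of 2 groups or of their means, 25 passed in the same direction under all 41 alternatives, among them the 4 h rises of Lrrc8a, Lrrc8d and both probes of Ano6 in sham and nsPEF cells. Of 98 results not called, 61 were called under no alternative. The count of probes differing between nsPEF and sham at 0 h, and that of the interaction, was 0 under all 41. The causes of the changes that follow were not tested.

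Spike-in scaling gave 2 probes at 4 h and 1 over the 3 time points for nsPEF against sham, 15 at 24 h against 0 h in sham cells and 14 in nsPEF cells. It reversed the 24 h against 0 h values in sham cells of Ano6 (0.56 and 0.49), Trpv4 probe 1 (0.51), Trpm7 probes 3 and 2 (0.69 and 0.62) and Piezo1 (0.68 and 0.081). In nsPEF cells it reversed Ano6 (0.23 and 0.099), Trpv4 probe 1 (0.36), Trpm7 probes 3 and 2 (0.33 and 0.33) and Piezo1 probe 1 (0.41). From 4 to 24 h in sham cells it reversed Trpv4 probe 1 (0.34), Trpm7 probes 3, 1 and 2 (0.39, 0.46 and 0.60), Piezo1 probe 1 (0.25), Lrrc8b probe 2 (0.32) and Lrrc8c (0.53), which left 9 probes higher and 5 lower. Taking the 75th percentile over probes detected on all arrays gave 7 calls from 4 to 24 h. Normexp correction gave 2 calls of nsPEF against sham over the 3 time points (Trpc1 and Piezo1 probe 2) and reversed the sham 4 h values of Piezo2 (-0.14), Trpv4 probe 2 (-0.15) and Piezo1 probe 2 (-0.082). Array weights gave 1 call at 24 h for nsPEF against sham and 10 for sham 24 h against 0 h.

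With 1 array or replicate number left out, sham 24 h against 0 h gave 2 to 6 calls against 5, with 3 without replicate 2, 2 without replicate 3, 3 without S0 replicate 3 and 3 without S24 replicate 3. The 4 h counts ranged from 10 to 13 in sham and 11 to 12 in nsPEF cells, and the nsPEF against sham counts were 0 throughout. Lrrc8b probe 1 from 4 to 24 h ranged from -0.26 without replicate 1 to 0.25 without replicate 4. Leaving out 1 array lost 8 member calls and made 10, which did not include Lrrc8d, Ano6 at 4 h or Lrrc8a at 4 h.

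Same-numbered samples deviated together weakly at most, with correlations from -0.065 to 0.0998. Within a time point their median was 0.046, against -0.0095 for samples with different numbers. Correlations this weak cannot decide whether same-numbered samples share a source. The paper states that, except for adhesion, all tests of a biological replicate ran alongside each other on a shared cell suspension. With the replicate block, the count for sham 4 h against 0 h was 11 and the other counts did not change.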
